A study of Mus musculus with 67 samples.

Results

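Serpina3n, A2m, Lcn2 and Chil1, 4 genes of secreted proteins known from the acute phase response, were described in retina and retinal pigment epithelium (RPE) of the mouse. They are 4 of 18536 gene identifiers read in the series, and each was found by its Ensembl identifier in both the retina and the RPE table. The 4 were chosen by their CPM (a gene's read count scaled to a common library size) in the time groups of both tissues. Their values in these groups are therefore given as a description, with no test.

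The animals were C57BL/6J abca4-/- rdh8-/- mice, called photosensitive in the labels, and every group carried both deletions, the reference group included. RNA was read from 33 libraries. Retina gave 6 libraries of a group called NB, 3 of 6h, 4 of 1d and 4 of 3d, and RPE gave 5, 3, 4 and 4. NB, whose letters the submitters do not explain, was taken as the reference. Neither an exposure nor a starting event for the times of 6 h, 1 d and 3 d is named in the labels. Each library held tissue pooled from both eyes of a mouse, per the protocol. RPE cells were shaken off the opened eyecup and the choroid was then taken out. ATAC libraries of the series were not analysed here.

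The acute phase response is the change in plasma proteins that follows infection or tissue damage, driven in liver by interleukin-6 family cytokines acting through STAT3, with help from C/EBP and NF-kappaB factors. Glia and epithelia outside the liver can switch on some of the same genes, and Serpina3n and Lcn2 are widely used markers of reactive astrocytes. Serpina3n codes for a secreted serine protease inhibitor of the alpha-1-antichymotrypsin family. A2m codes for alpha-2-macroglobulin, a bait protein that traps proteases of many classes and is cleared through the receptor LRP1. Lcn2 codes for lipocalin 2, which binds bacterial iron carriers. Chil1 codes for a chitinase-like lectin that binds chitin without cutting it.

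Windows of 250 bases upstream of a start listed for 3 of these genes are shown because the members moved together and the motifs of the factors above can be looked for there. They come from RefSeq on the GRCm38.p6 assembly, run 5′ to 3′ on the gene's own strand, and carry matches in capitals.
Serpina3n, chr12:104406458-104406707, plus strand: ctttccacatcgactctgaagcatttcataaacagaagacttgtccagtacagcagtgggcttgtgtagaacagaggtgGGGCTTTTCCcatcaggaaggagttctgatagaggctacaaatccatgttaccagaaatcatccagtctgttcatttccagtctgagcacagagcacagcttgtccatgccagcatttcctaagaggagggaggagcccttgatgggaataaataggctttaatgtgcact
Lcn2, chr2:32387740-32387989, minus strand: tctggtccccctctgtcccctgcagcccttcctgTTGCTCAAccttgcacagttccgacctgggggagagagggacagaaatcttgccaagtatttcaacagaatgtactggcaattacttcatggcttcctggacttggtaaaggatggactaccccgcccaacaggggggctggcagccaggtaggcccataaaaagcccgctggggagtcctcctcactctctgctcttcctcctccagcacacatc
Chil1, chr1:134181906-134182155, plus strand: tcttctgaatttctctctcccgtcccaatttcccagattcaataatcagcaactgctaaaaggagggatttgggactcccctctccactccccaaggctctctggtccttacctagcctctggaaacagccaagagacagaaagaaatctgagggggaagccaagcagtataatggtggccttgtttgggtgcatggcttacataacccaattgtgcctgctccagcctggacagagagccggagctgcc
The letters searched on both strands were TTCNNNGAA for STAT, TTGCNNAA for C/EBP, GGG, any 3 bases and TTCC for NF-kappaB and TGANTCA for AP-1, and none of the matches found overlapped another. The window of Serpina3n held an NF-kappaB match, GGGCTTTTCC, at bases 104406537 to 104406546 of chromosome 12. It lay 171 to 162 bases before the end of the window and 109 to 100 bases before the gene interval given below. In the window of Lcn2 a C/EBP match, TTGCTCAA, lay 216 to 209 bases before the start of the gene. None of the 4 motifs was in the window of Chil1. Among 32851 mouse promoter windows of the same length, 7.02% held the STAT letters, 9.56% the C/EBP letters, 4.65% the NF-kappaB letters and 6.75% the AP-1 letters. A match of letters is a description of the sequence and not a bound site. In RefSeq the genes span 104406646 to 104414334 of chromosome 12 (Serpina3n), 121636165 to 121679238 of chromosome 6 (A2m), 32384637 to 32387739 of chromosome 2 (Lcn2) and 134182156 to 134190031 of chromosome 1 (Chil1). The interval of Serpina3n begins inside the window shown for it.

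Libraries held 9.45 to 32.4 M recovered reads in retina and 11.5 to 26.8 M in RPE. Depth fell into a deeper set (all 6h libraries, 2 retina NB libraries named A1 and A2, and 1 RPE NB library named A1) and a shallower set (the NB libraries B1 to B4 of each tissue and all 1d and 3d libraries), so that 6h is compared with NB across depths. Over the 10 rod markers, the summed level in retina was 65419 to 72988 CPM in NB, 39563 to 47944 at 6h, 20984 to 36181 at 1d and 34585 to 40182 at 3d. Over the 10 RPE markers, the sum in RPE libraries was 14861 to 25539.9 CPM in NB, 9391 to 13487 at 6h, 8413 to 12431 at 1d and 15707 to 27915 at 3d, so that 6h and 1d both lay below every NB library and 3d overlapped NB. Transcripts of the deleted genes were read in every group, in retinal NB at 797 ± 96.3 CPM for Abca4 and 40.4 ± 6.08 CPM for Rdh8. Where in these genes the reads lay is not given in the sources used here, so the deletions could not be checked. The RPE library NB B3 stood apart in Ltf, the lactoferrin gene and a neutrophil marker, at 438 CPM against 29.1 to 154 CPM in the other NB libraries of RPE.

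In retina all 4 genes were higher than NB at 6h, highest at 1d and lower again at 3d. Their NB libraries lay below every library of every later group. Going by mean CPM, 1d reached 55.4 times NB for Serpina3n, 19.2 times for A2m, 11.1 times for Lcn2 and 6.46 times for Chil1. In RPE none of the 4 stood clear of NB at 6h. All 4 did at 1d, at 14.9, 6.18, 10.1 and 9.95 times NB in the same order, and 3 of them still did at 3d, when Lcn2 overlapped NB.

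**Figure D1:**
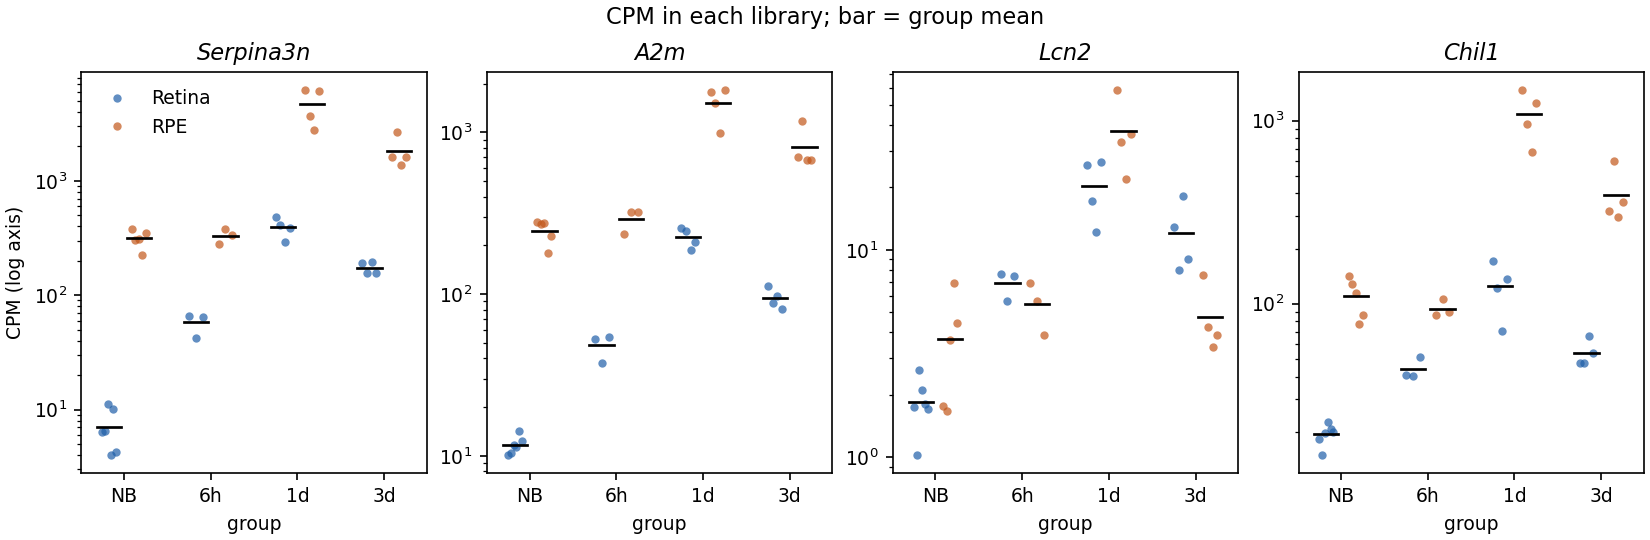
CPM (log axis) of Serpina3n, A2m, Lcn2 and Chil1 in each of the 33 libraries, by group NB, 6h, 1d and 3d, with retina in blue and RPE in orange. Black bars are group means. Retina 6h points stand above NB for each gene, whereas the range of RPE 6h points overlaps that of NB. For A2m in RPE the 6h points reach 320.1 CPM, above the NB maximum of 280.2 CPM. Lcn2 in RPE returns to 3.39 to 7.56 CPM at 3d.

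Serpina3n, the serine protease inhibitor, ranged in retinal NB libraries from 4.04 through a median of 6.41 to 11.2 CPM. At 6h the retina libraries read 66.1, 42.2 and 65.0 CPM, at 1d 482, 411, 289.9 and 386 CPM, and at 3d 192, 155, 194 and 156 CPM. No neighbouring groups overlapped in the order 1d, 3d, 6h, NB. Means from NB to 3d were 7.09 ± 2.98, 57.8 ± 13.5, 392 ± 79.6 and 174 ± 21.7 CPM (SD, n = 6, 3, 4 and 4). On the log2(CPM + 0.5) scale, which understates changes of low genes, the difference from NB was 3.00 ± 0.25 (SE) at 6h, 5.76 ± 0.22 at 1d and 4.61 ± 0.22 at 3d. Of the 16926 retinal genes in the fit, it ranked 16th, 2nd and 1st from the top by that difference.

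In RPE, Serpina3n read 382, 303, 309, 224 and 353 CPM in the NB libraries A1 and B1 to B4, and 280.4, 382 and 333 CPM at 6h. The 1d libraries read 6163, 3679, 2783 and 6138 CPM, and the 3d libraries 1607, 2678, 1364 and 1599 CPM. NB and 6h shared their range, whereas the 1d and 3d libraries all lay above both. The lowest 1d library and the highest 3d library were 2783 and 2678 CPM, so these groups were apart by a narrow margin. Group means were 314 ± 60.0 CPM (SD, n = 5), 332 ± 51.0 (n = 3), 4691 ± 1725 (n = 4) and 1812 ± 588 (n = 4). The log2 difference from NB was 0.09 ± 0.28 (SE) at 6h, 3.84 ± 0.25 at 1d and 2.50 ± 0.25 at 3d, which ranked 3rd and 4th from the top of 16712 genes at 1d and 3d. Reads shared with other members of the Serpina3 gene cluster make this count uncertain, since the treatment of reads that fit several genes is not given in the sources used here.

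A2m, the protease trap, varied little between retinal NB libraries, from 10.2 through a median of 11.5 to 14.2 CPM. It read 52.8, 37.4 and 54.2 CPM at 6h, 257, 244, 188 and 209.6 CPM at 1d, and 113, 88.4, 96.9 and 81.0 CPM at 3d. As for Serpina3n, each group stood apart from its neighbour in the order 1d, 3d, 6h, NB. The means were 11.7 ± 1.47, 48.1 ± 9.31, 225 ± 31.6 and 94.7 ± 13.5 CPM from NB to 3d (SD, n = 6, 3, 4 and 4). The log2 differences from NB were 1.98 ± 0.13 (SE), 4.20 ± 0.12 and 2.96 ± 0.12 at 6h, 1d and 3d.

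In RPE, A2m read 280.2, 269.8, 276, 180.2 and 227 CPM in NB and 237, 319.6 and 320.1 CPM at 6h, with overlap between them. At 1d it read 1786, 1514, 986 and 1815 CPM, and at 3d 699, 1175, 677 and 678 CPM. All 8 of these later libraries lay above NB and 6h, but 1d and 3d overlapped, because the third 1d library was low and the second 3d library was high. Means were 247 ± 42.8, 292 ± 47.9, 1526 ± 384 and 807 ± 245 CPM (SD, n = 5, 3, 4 and 4). The log2 difference from NB was 0.25 ± 0.23 (SE) at 6h, 2.60 ± 0.21 at 1d and 1.68 ± 0.21 at 3d.

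Lcn2, the iron-carrier lipocalin, was read at low depth in the reference, with 16 to 49 reads per retinal NB library. Its NB level ran from 1.03 through a median of 1.77 to 2.65 CPM. The 6h libraries read 7.63, 5.63 and 7.49 CPM, the 1d libraries 25.5, 17.3, 12.2 and 26.6 CPM, and the 3d libraries 12.9, 7.95, 18.2 and 9.05 CPM. All later libraries lay above NB, and 1d and 3d overlapped. Means were 1.84 ± 0.531, 6.92 ± 1.117, 20.4 ± 6.86 and 12.03 ± 4.65 CPM (SD, n = 6, 3, 4 and 4). The log2 differences from NB were 1.69 ± 0.26 (SE), 3.13 ± 0.23 and 2.38 ± 0.23.

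Lcn2 in RPE was a single peak at 1d. It read 1.76, 1.68, 3.69, 6.91 and 4.45 CPM in NB, 6.90, 5.65 and 3.899 CPM at 6h, and 7.56, 4.25, 3.39 and 3.87 CPM at 3d. These 3 groups overlapped each other, and the 1d libraries, at 58.6, 33.1, 21.8 and 36.2 CPM, lay above all of them. The means were 3.70 ± 2.16, 5.48 ± 1.51, 37.4 ± 15.4 and 4.77 ± 1.90 CPM from NB to 3d (SD, n = 5, 3, 4 and 4). The log2 difference from NB was 0.64 ± 0.39 (SE) at 6h, 3.25 ± 0.36 at 1d and 0.42 ± 0.36 at 3d. From 1d to 3d it fell by 2.82 ± 0.38 on this scale, and only 1 of the 16712 RPE genes in the fit had a lower value in that contrast. The NB spread, with an SD of 58.5% of the mean, was the widest of any group of the 4 genes. Library NB B3, which stood apart in Ltf, was also the highest NB library in Lcn2 and the lowest in the other 3 genes. Without NB B3 the 6h difference of Lcn2 was 0.88 ± 0.36.

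Chil1, the chitinase-like lectin, ran in retinal NB libraries from 15.0 through a median of 19.7 to 22.5 CPM. It read 40.6, 40.0 and 51.1 CPM at 6h, 170.3, 123, 70.6 and 136 CPM at 1d, and 47.4, 47.7, 66.8 and 53.5 CPM at 3d. All 11 later libraries lay above NB, while 6h and 3d overlapped. The 1d libraries spread widely, and the lowest of them, at 70.6 CPM, was close to the highest 3d library at 66.8 CPM. Means were 19.3 ± 2.54, 43.9 ± 6.25, 125 ± 41.4 and 53.9 ± 9.06 CPM (SD, n = 6, 3, 4 and 4), with log2 differences from NB of 1.17 ± 0.19 (SE), 2.60 ± 0.17 and 1.45 ± 0.17. These were the smallest retinal differences of the 4 genes at each time.

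Chil1 in RPE read 141, 128, 114, 77.7 and 86.7 CPM in NB and 86.4, 106 and 89.9 CPM at 6h, where the groups overlapped. It then read 1462, 964, 678 and 1254 CPM at 1d and 320.4, 602, 296 and 359 CPM at 3d. The 1d libraries stood above the 3d libraries, and those above NB and 6h. Means were 109.5 ± 26.9, 94.0 ± 10.2, 1089.6 ± 342 and 394 ± 141 CPM (SD, n = 5, 3, 4 and 4). The log2 difference from NB was -0.19 ± 0.26 (SE) at 6h, 3.29 ± 0.24 at 1d and 1.82 ± 0.24 at 3d. By its 1d difference Chil1 thus came last of the 4 genes in retina. In RPE its 3.29 lay beside 3.25 ± 0.36 for Lcn2, a gap smaller than either SE. By mean CPM at 1d, Lcn2 reached 10.1 times NB there and Chil1 9.95 times, so the order of these genes is not settled.

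**Figure D2:**
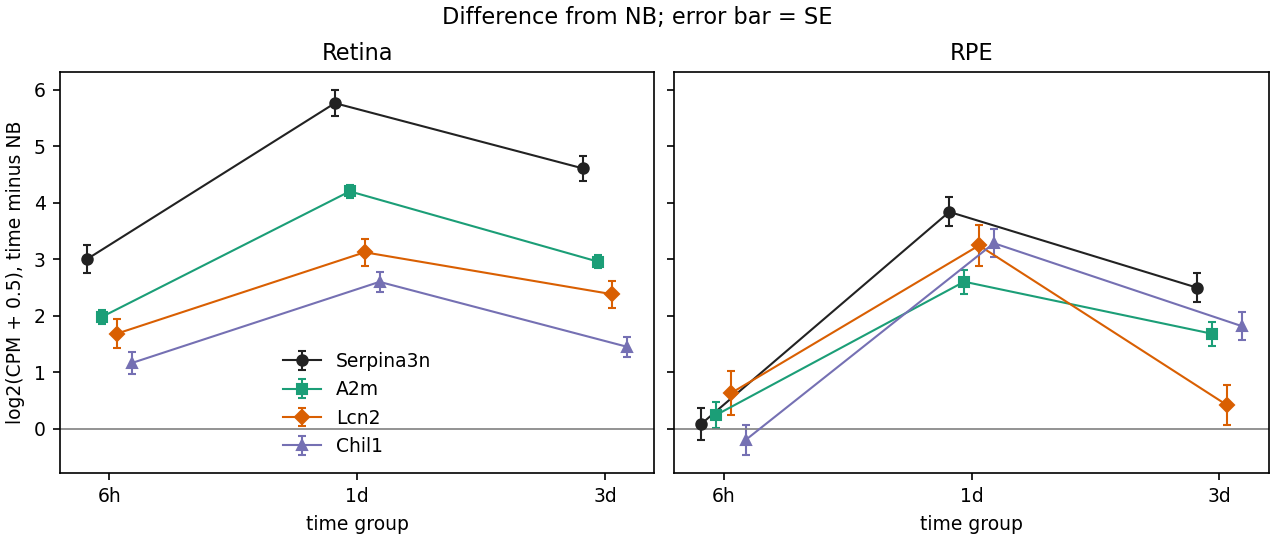
Difference from NB on the log2(CPM + 0.5) scale at 6h, 1d and 3d for the 4 genes, retina on the left and RPE on the right, with bars of 1 SE. Lines join times of a gene. In retina the 4 lines keep their order from Serpina3n at the top to Chil1 at the bottom. In RPE they start between -0.19 (Chil1) and 0.64 (Lcn2) at 6h, and Lcn2 lies at 0.42 at 3d.

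The share of genes that behave this way over the whole table sets the scale for the counts, and nothing further is read from them because the same values chose the members. In retina 4 of 4 members had groups that did not overlap and were higher than NB at each time, against 16.1% of 16926 genes at 6h, 16.3% at 1d and 13.5% at 3d. From 1d to 3d 3 of 4 members were lower without overlap, against 11.7%. In RPE the count higher than NB without overlap was 0 of 4 at 6h (background 6.70%), 4 of 4 at 1d (3.14%) and 3 of 4 at 3d (2.48%). From 1d to 3d 3 of 4 were lower without overlap, against 6.43%. Against NB A1 alone, the 1 RPE reference library as deep as the 6h libraries, taken to vary like the other groups, the 6h difference was -0.21 ± 0.49 (SE) for Serpina3n, 0.05 ± 0.39 for A2m, 1.37 ± 0.50 for Lcn2 and -0.59 ± 0.42 for Chil1.

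The share of the 1d gain in mean CPM over NB that was left at 3d was lowest for Lcn2 in RPE. There Lcn2 kept 3.17%, while Serpina3n kept 34.2%, A2m 43.8% and Chil1 29.1%. In retina Lcn2 kept 54.9%, the most of the 4, beside 43.4% for Serpina3n, 39.0% for A2m and 32.7% for Chil1. The 6h level had reached 13.2% (Serpina3n), 17.1% (A2m), 27.4% (Lcn2) and 23.3% (Chil1) of the 1d gain in retina. Whether these shares differ between genes beyond their errors was not tested.

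Levels were higher in RPE than in retina for 3 of the 4 genes in every group, with no overlap between tissues, although the 2 tables were normalized separately and the ratios rest on that scaling. Serpina3n was 44.3 times higher in RPE in NB, 5.75 times at 6h, 11.96 times at 1d and 10.4 times at 3d. A2m was 21.1, 6.07, 6.79 and 8.52 times higher, and Chil1 5.67, 2.14, 8.73 and 7.32 times. For Lcn2 the ratio was 2.01 in NB, 0.792 at 6h, 1.84 at 1d and 0.396 at 3d. Its tissue ranges overlapped in each group other than 3d, when every retina library (at least 7.95 CPM) exceeded every RPE library (at most 7.56 CPM).

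Retina libraries held some RPE transcripts, which bears on genes that are high in RPE. Of the 10 RPE markers 9 were in the retina table, Best1 being the exception, and their sum in retina was 368 to 562 CPM in NB, 622 to 916 at 6h, 359 to 489 at 1d and 385 to 686 at 3d. Each marker's retina level was divided by its RPE level in the same group, and the median of these shares was 2.52% in NB, 6.82% at 6h, 4.15% at 1d and 2.88% at 3d. That share of the RPE level of Serpina3n comes to 7.91 CPM in NB, where retina read 7.09, and to 195 CPM at 1d, where retina read 392. At the highest share of a marker, the 1d value was 273 CPM. For A2m the amounts were 6.21 of 11.7 CPM in NB and 63.4 of 225 CPM at 1d. Chil1 came to 2.76 of 19.3 and 45.3 of 125 CPM, and Lcn2 to 0.0931 of 1.84 and 1.56 of 20.4 CPM. At 6h, when the median share was highest, the amounts were 22.7 of 57.8 CPM for Serpina3n and 19.9 of 48.1 for A2m. Those for Chil1 and Lcn2 were 6.41 of 43.9 and 0.374 of 6.92 CPM. The highest share of a marker gave 31.8 CPM for Serpina3n and 27.9 CPM for A2m at 6h. The measured 6h, 1d and 3d means of all 4 genes exceeded the amount at the highest share. In NB that amount was 11.6 CPM for Serpina3n, above the 7.09 CPM measured. For A2m, Lcn2 and Chil1 it stayed below the NB mean, at 9.13, 0.137 and 4.05 CPM. The part that RPE transcripts have in the retinal values, the NB reference included, was not tested beyond this arithmetic.

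**Figure D3:**
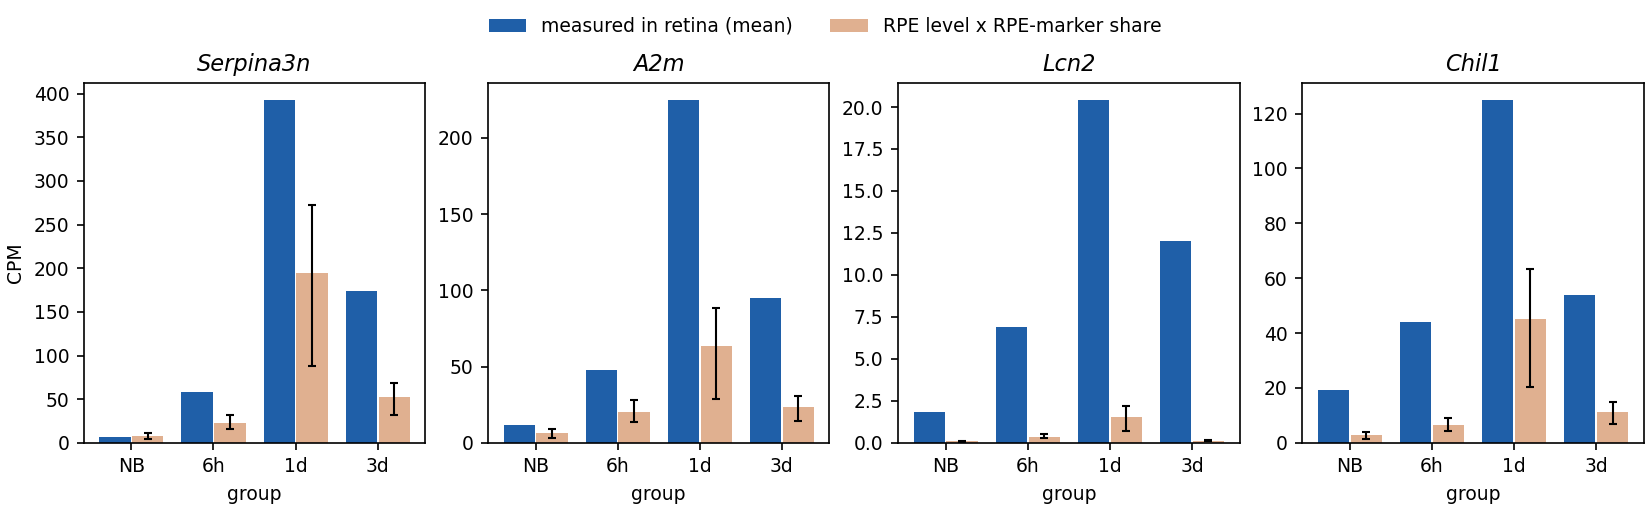
Mean CPM measured in retina (blue bars) beside the amount that the RPE-marker share of the RPE level would give (tan bars) for each gene and group. Whiskers run from the lowest to the highest share over 9 RPE markers. The tan bar matches the blue one for Serpina3n in NB (7.91 and 7.09 CPM) and is lower in the later groups, at 195 and 392 CPM on 1d.

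In the other direction, the 10 rod markers in RPE libraries stood at a median of 7.10% of their retina level in NB, 21.9% at 6h, 20.4% at 1d and 14.1% at 3d. The same arithmetic gave 80.0 of 4691 CPM for Serpina3n in RPE at 1d, 45.8 of 1526 for A2m, 25.5 of 1089.6 for Chil1 and 4.16 of 37.4 for Lcn2. For Lcn2 in RPE the amount was 0.131 of 3.70 CPM in NB, 1.51 of 5.48 at 6h and 1.70 of 4.77 at 3d, a larger part of the measured level at 6h and 3d than at 1d. Chil1 in RPE came to 9.60 of 94.0 CPM at 6h. The median rod sum in RPE libraries was 5823 CPM in NB, 9343 at 6h, 6176 at 1d and 5589 at 3d. Retina levels of these markers, by which the shares were divided, were lower after NB, as given above. Whether a share of rod markers holds for transcripts of other retinal cells was not tested. The part of retinal transcripts in the RPE values was not tested beyond this arithmetic.

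Sums of markers of other cells also differed between groups in retina, not all of them in the order of these genes. Of 6 astrocyte markers 5 were read, Gfap, S100b, Aldh1l1, Pdgfra and Igf1, with Pax2 not in the table. Their sum was 97.8 to 111 CPM in NB, 229 to 326 at 6h, 604 to 745 at 1d and 352 to 472 at 3d. That is the same order of groups as for Serpina3n and A2m, but a sum does not tell which of the 5 moved. The 10 Muller glia markers summed to 4879 to 5577, 4318 to 5101, 3257 to 3873 and 6265 to 6804 CPM, lowest at 1d. This sum does not tell which of the 10 moved either. The same list summed to 5887 to 9212 CPM in the NB libraries of RPE, so it is not particular to retina. The 10 endothelial markers summed to 311 to 349, 313 to 329.7, 547 to 586 and 577 to 667 CPM. Of 12 microglia and macrophage markers 11 were read, at 32.3 to 48.6, 40.1 to 47.3, 46.9 to 62.1 and 151 to 176 CPM. Of 12 neutrophil markers only Csf3r was in the retina table, at 0.398 to 0.971 CPM in NB, 0.523 to 0.993 at 1d and 2.00 to 4.37 at 3d. Lcn2 is abundant in neutrophils, whose defining genes S100a8, S100a9, Ly6g and Mpo were not in that table. The part of these cells in the results was not tested. In bulk tissue, a change in the number of cells of a type and a change of RNA per cell cannot be told apart.

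In RPE libraries 2 of 12 neutrophil markers were read, S100a9 and Ltf. S100a9 did not exceed 2.10 CPM in any library. Ltf read 29.1 to 438 CPM in NB, 28.9 to 72.0 at 6h, 22.2 to 121 at 1d and 8.496 to 85.2 at 3d, and these ranges overlapped. The defining genes S100a8, Ly6g and Mpo were not in that table either. The microglia and macrophage sum (11 of 12, P2ry12 not in the table) was 362 to 389.7 CPM in NB, 234 to 278 at 6h, 198 to 255 at 1d and 369.6 to 456 at 3d, so that it was lower at 1d, when the 4 genes peaked. Endothelial markers (10 of 10) summed to 64.2 to 115, 83.8 to 104, 47.0 to 80.2 and 80.0 to 98.0 CPM in the same groups. The 5 red blood cell markers summed to 47.6 to 83.7, 43.6 to 75.1, 61.2 to 139.9 and 114 to 192 CPM, so that every 3d library lay above NB. Astrocyte markers (5 of 6) summed to 66.0 to 176 CPM in NB, 136 to 194 at 6h, 105 to 194 at 1d and 115 to 163 at 3d, with overlap. The part of these cells in the RPE values was not tested.

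Within groups, Serpina3n, A2m and Chil1 varied together in RPE. The correlation of their deviations from the group means over 16 RPE libraries was 0.90 for Serpina3n and A2m, 0.88 for Serpina3n and Chil1 and 0.92 for A2m and Chil1. Lcn2 did not share this, with 0.08, -0.12 and -0.12 against the same 3 genes. In retina (17 libraries) these correlations ran from 0.31 for Serpina3n and Chil1 to 0.77 for Lcn2 and Chil1. The genes of a library share its depth and its dissection, and the values are a description. Single libraries set part of the spread. The third 1d library was the lowest of its group for all 4 genes in each tissue, the third 3d library the lowest for all 4 in RPE, and the second 6h library the lowest for all 4 in retina.

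Genes outside the set were ranked by how closely their log2(CPM + 0.5) followed a member across all libraries of a tissue, group differences included. In retina (17 libraries, 15100 genes) Serpina3n was followed most closely by Bcl3 (r = 0.979), Sulf1 (0.975) and Vwa5a (0.974), and A2m by Hsd17b2 (0.982), Csf1 (0.981) and Parp3 (0.980). Lcn2 was followed by the complement gene C3 (0.976), Parp3 (0.974) and S100a1 (0.971), and Chil1 by Cltb (0.990), Sqstm1 (0.983) and Pdpn (0.983). In RPE (16 libraries, 14930 genes) Ift57 came first for Serpina3n (0.959), A2m (0.970) and Chil1 (0.959). Lcn2 in RPE was followed by Tmem120b, Jak3 and Pdcd5 (0.940 each). Bcl3, a partner of NF-kappaB, stood at 0.133 ± 0.0731 CPM in NB and 19.6 ± 2.68 at 1d in retina.

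Other acute phase genes, which were not among the members, are set beside them. The lists were drawn up with earlier results of these data known, so their counts are no independent check. Companion lists of 123 genes held 54 retina genes and 62 RPE genes that passed the filter on low values. Among 27 genes of positive acute phase proteins 8 were tested in retina, and 6 rose at 6h, 6 at 1d and 5 at 3d with none falling (limma, adjusted p under 0.05). Over all genes 16.9%, 24.0% and 19.3% were called higher at these times. The median log2 difference of the 8 was 1.38, 2.30 and 1.63, beside 0.00, -0.01 and -0.02 over all genes. Scaled to library totals instead, the median over all genes was 0.15 at 1d and 0.12 at 3d, and the share of higher genes among those called was 74.3% in place of 46.5% at 1d and 77.0% in place of 44.6% at 3d. Cp, the ferroxidase ceruloplasmin, rose from 198 ± 13.5 CPM in NB to 749 ± 120.2 at 1d (log2 difference 1.90 ± 0.09, limma adjusted p = 4.12e-12). Timp1, a metalloproteinase inhibitor, rose from 0.569 ± 0.335 to 8.51 ± 2.45 CPM (log2 difference 3.1 ± 0.22, limma adjusted p = 8.26e-10). Of 8 negative acute phase genes, whose plasma proteins fall in that response, 3 were tested in retina, and 2 rose at 6h, 2 at 1d and 3 at 3d with none falling. Trf, the transferrin gene, rose at each time, from 6.64 ± 1.88 CPM in NB to 12.2 ± 0.751, 20.4 ± 4.18 and 23.9 ± 2.97 (limma adjusted p = 1.47e-03, 3.67e-07 and 2.49e-07). Its mean was far higher in RPE in every group, at the values given below. Ttr, also called higher at 6h, is itself among the RPE markers summed above. The part of RPE transcripts in the retinal rises of these negative acute phase genes was not tested. Genes of the main liver acute phase proteins, such as Saa1, Saa2, Orm1, Hp and Fga, were not in the tables used here.

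In RPE 10 of the 27 were tested, and 3 rose at 1d (Timp1, C4b and C3) and 1 at 3d (C4b), where 1.77% and 0.162% of all genes were called higher. None was called at 6h by limma or edgeR or DESeq2, and 0 of 10 had an unadjusted limma p under 0.05. Timp1 went from 2.92 ± 0.823 CPM in NB to 21.5 ± 7.06 at 1d (log2 difference 2.67 ± 0.28, limma adjusted p = 3.34e-05) and back to 6.16 ± 2.05 at 3d. C4b, a complement gene, stayed high, at 47.7 ± 24.0 CPM in NB, 217 ± 40.6 at 1d and 231 ± 66.9 at 3d (limma adjusted p = 2.38e-04 and 2.05e-03). Of the negative acute phase genes 3 were tested in RPE, and Trf rose at 1d and 3d. It stood at 221 ± 35.8 CPM in NB, 115 ± 22.8 at 6h, 399.8 ± 113 at 1d and 551 ± 141 at 3d (limma adjusted p = 0.0304 at 1d and 0.0141 at 3d). The 1d call was lost without NB A1, NB B4 or 1d library 1, 2 or 4, and against NB B1 to B4 alone.

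**Figure D4:**
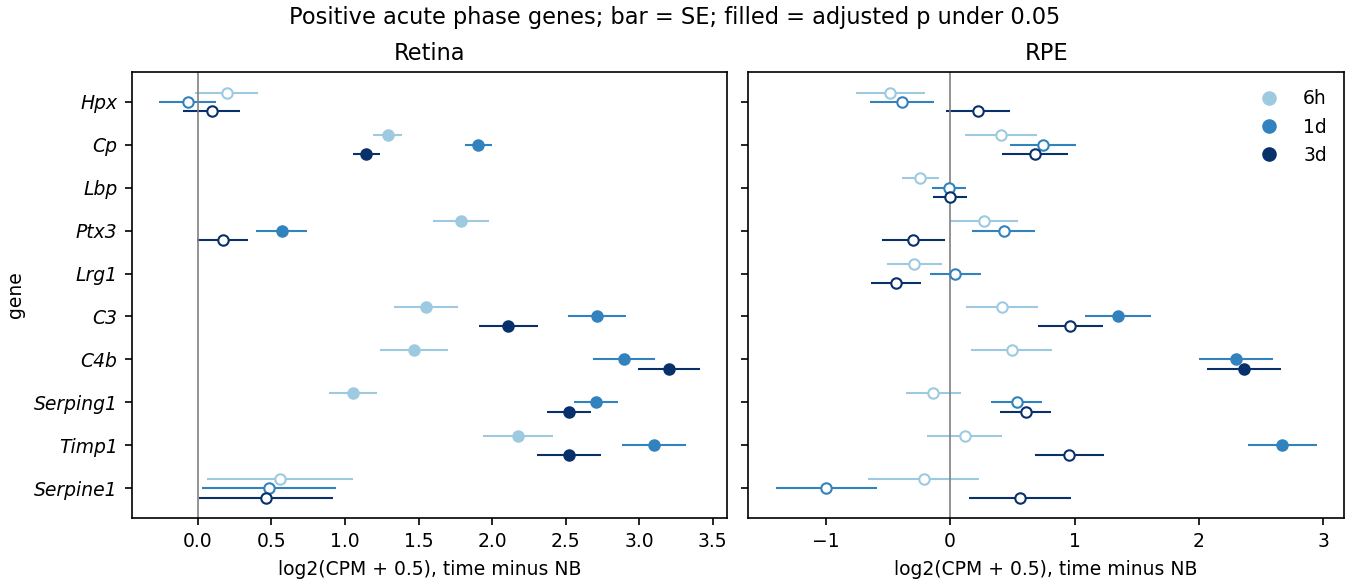
Log2(CPM + 0.5) difference from NB of the positive acute phase genes that were tested, with 1 SE, at 6h (light), 1d (mid) and 3d (dark), retina on the left and RPE on the right. Filled points have a limma adjusted p under 0.05. In retina C3, C4b, Serping1 and Timp1 lie between 2.11 and 3.2 at 1d and 3d, and in RPE filled points are Timp1, C4b and C3 at 1d and C4b at 3d.

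Of 31 inducer genes (ligands, receptors and factors of the acute phase) 23 were tested in retina, and 18 rose and 0 fell at 6h, 15 rose and 1 fell at 1d, and 14 rose and 3 fell at 3d. The list also counts Socs3, which is a feedback inhibitor and not an inducer. Over all retinal genes 16.9%, 24.0% and 19.3% were called higher and 18.5%, 27.5% and 23.9% lower. The gene lower at 1d was Nr3c1, the glucocorticoid receptor, and those lower at 3d were Nr3c1, Lifr, a receptor of the interleukin-6 family, and Jak1, a kinase of these receptors, all 3 named after their values were seen. Scaled to library totals, 19, 18 and 17 of the 23 rose and 0, 1 and 1 fell, Lifr being the one left at 3d (log2 difference -0.23), while Jak1 changed sign (0.01). The median difference was 0.88, 0.91 and 0.43. The ligand genes Il6, Il1a, Il1b, Tnf, Osm, Cntf, Il11 and Clcf1 were not in the retina table. With a TMM rescaling, the ligand gene Lif lay above NB by 5.33 ± 0.21 (SE) at 6h and 3.55 ± 0.19 at 1d on the log2 scale. Ctf1, also a ligand gene, lay at -0.01 ± 0.20 and -0.42 ± 0.18. Osmr, a receptor gene for oncostatin M, stood at 9.003 ± 1.56 CPM in NB, 106 ± 3.61 at 6h and 101 ± 10.5 at 1d. Stat3, the factor behind these receptors, stood at 67.98 ± 3.39, 309 ± 39.3 and 380.3 ± 6.61 CPM, and Socs3, its feedback inhibitor, at 3.27 ± 0.501, 27.1 ± 1.87 and 68.8 ± 6.58 CPM. From 1d to 3d 14 of the 23 fell, where 11.6% of all genes were called lower, among them Socs3, to 13.98 ± 3.05 CPM (limma adjusted p = 2.69e-10).

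In RPE 25 genes of the inducer list, which counts the feedback inhibitor Socs3, were tested. At 6h, when no member stood clear of NB, 3 had risen, where 0.808% of all genes were called higher. These were Osmr (105 ± 11.1 to 277 ± 27.4 CPM, log2 difference 1.39 ± 0.20, limma adjusted p = 4.80e-03), Cebpd, a C/EBP factor (12.2 ± 4.19 to 34.8 ± 4.40 CPM, 1.53 ± 0.24, limma adjusted p = 9.81e-03), and Socs3 (7.998 ± 2.36 to 20.1 ± 3.58 CPM, 1.32 ± 0.23, limma adjusted p = 0.0154). Against NB A1 alone the log2 differences were 1.17 ± 0.35 (SE) for Osmr, 2.00 ± 0.31 for Cebpd and 1.94 ± 0.29 for Socs3. None of the 3 passed there (limma adjusted p = 0.271, 0.105 and 0.105), in a fit whose single reference library borrows its spread from the other groups and in which 0 of 16712 genes were called (1816 at an unadjusted p under 0.05). The calls of Cebpd and Socs3 were also lost without the first or without the third 6h library. At 1d 6 of 25 were higher (limma), where 1.77% of all genes were called higher. At 3d 0 of 25 were higher (limma), beside 0.162% of all genes, with 4 at an unadjusted p under 0.05, 0 by edgeR and 1 by DESeq2.

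Relatives, receptors and protease partners of the members formed 5 further lists. In retina 21 of their genes were tested, and 7 rose and 1 fell at 6h, 13 rose and 2 fell at 1d, and 12 rose and 2 fell at 3d, beside the shares of all genes given above. Scaled to library totals, 8, 17 and 15 rose and 1, 0 and 0 fell. Serpina3g, a neighbour of Serpina3n in its gene cluster, was the 1 tested of 10 cluster genes, and in retina it rose from 0.519 ± 0.187 CPM in NB to 3.21 ± 0.870 at 1d (limma adjusted p = 8.53e-08). Lrp1, the receptor gene that clears A2m complexes, rose at 6h from 234 ± 22.4 to 326 ± 16.2 CPM in retina (log2 difference 0.48 ± 0.07, limma adjusted p = 4.01e-05). Il13ra1, an interleukin-13 receptor chain, rose from 0.839 ± 0.250 to 3.05 ± 0.718 CPM at 1d (limma adjusted p = 1.22e-06). Slc22a17, a receptor gene of Lcn2, was at 198 ± 12.8 CPM in NB and 234 ± 14.6 at 3d in retina (log2 difference 0.24 ± 0.06, limma adjusted p = 1.69e-03). Of the proteases, Plau rose in retina from 0.217 ± 0.133 to 3.17 ± 0.749 CPM at 1d (limma adjusted p = 7.61e-10). Mmp3, a matrix protease gene, rose in RPE at 1d, with 1.17 ± 0.312, 0.789 ± 0.432, 11.1 ± 7.82 and 1.27 ± 0.263 CPM from NB to 3d (1d minus NB limma adjusted p = 8.21e-04). The genes that fell in retina were Chid1, of the chitinase family, Ovgp1, a further chitinase relative, and Lrp2, a receptor gene of Lcn2. Chid1 stood at 51.8 ± 4.97 CPM in NB, 42.7 ± 0.439 at 6h, 45.2 ± 2.94 at 1d and 45.95 ± 1.68 at 3d, and was called lower at each time (limma adjusted p = 3.73e-03, 0.0142 and 0.0350). Its 1d call was lost scaled to library totals and without 1d library 4. Its 3d call was lost scaled to library totals, with DESeq2, with the pair of groups alone and without NB A2, B1, B3 or B4 or 3d library 1 or 3. Ovgp1 went from 17.6 ± 2.09 to 13.8 ± 1.47 CPM at 3d (limma adjusted p = 5.30e-03). Lrp2 was higher at 6h and lower at 1d, at 31.6 ± 2.50, 41.9 ± 5.14 and 25.6 ± 2.74 CPM (limma adjusted p = 3.62e-03 and 7.76e-03). Scaled to library totals, the 3d call of Ovgp1 and the 1d call of Lrp2 were lost too. In RPE 25 genes of these lists were tested, and the only calls against NB by limma were Hspa5, a chaperone of the endoplasmic reticulum, lower at 6h (426 ± 52.8 to 291 ± 24.5 CPM, limma adjusted p = 0.0378), where 0.652% of all genes were called lower, and Mmp3, higher at 1d. The Hspa5 call was lost scaled to library totals, with the pair of groups alone, against NB A1 alone and without any NB library of the B set or 6h library 1 or 3. At 3d none was called by limma or edgeR and 1 by DESeq2, with 8 at an unadjusted limma p under 0.05.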

How the data were processed

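The deposited signal values are CPM scaled by the authors to an effective library size, per the file headers and the column sums. The submitters' processing notes name Trimmomatic, STAR, edgeR and GRCm38. Read counter, low-count filter and versions are not given in the sources used here. Reads were recovered from the step that 1 read makes in a library (100% of values whole, within 0.01 of a read). The 3 tables of a tissue held identical CPM columns, and their fold changes and p-values, made by the authors, were not used. Retina and RPE were normalized separately, so tests stay within a tissue. Both eyes of a mouse were pooled; the labels do not otherwise say how replicates relate, so p-values measure the spread between these samples.

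Fits used log2(CPM + 0.5) in limma 3.58.1 (R 4.3.3), with all groups of a tissue, a trended variance, Benjamini-Hochberg adjustment over all genes and a threshold of 0.05. Genes needed 1 CPM in 3 or more libraries, which left 16926 in retina and 16712 in RPE. The script was tested on simulated data. Errors of CPM are SD and those of log2 differences SE. The NB columns name their group but no single sample. Other settings were pseudocounts 0.1 and 2, all genes unfiltered, a TMM rescaling, scaling to library totals, edgeR 4.0.16 and DESeq2 1.42.0 on recovered reads, the pair of groups alone, NB of like depth, a replicate block, and each library left out. The members and gene lists were chosen with earlier results of these data known. Companions named are from the 3 called genes with the smallest adjusted p per list and comparison, and the genes most like a member are the 3 with the highest Pearson correlation.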

Additional observations from a re-analysis of the deposited data

Results flagged for a closer look

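A2m at 3d in RPE had a library far from the others. The second 3d library read 1175 CPM, and the nearest of the other 3 read 699 CPM, so that the gap was 0.955 of the whole range of the group. Of 24 groups of 4 or more libraries looked at, this was the 1 with such a library, and chance gives about 1 in 20. Without it the 3d difference of A2m from NB in RPE was 1.49 on the log2 scale, in place of 1.68.

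Chil1 moved in opposite directions in the tissues at 6h. In RPE the difference from NB was -0.19, with all 3 libraries below the NB mean, whereas all 3 retina libraries lay above theirs (1.17). The difference between the tissues was not tested, and the RPE 6h libraries overlapped NB.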

How the results depend on the processing

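The 4 members kept their direction under every alternative in each comparison but RPE 6h against NB, where Serpina3n lay at -0.21 against NB A1 alone and at -0.03 to 0.21 with 1 library left out. Of 288 member differences under other settings 279 moved by less than 1 SD of the residuals, and of 284 with 1 library left out all did. Lcn2, the member with the fewest reads, depends on the pseudocount. With 2 in place of 0.5 its retinal differences from NB were 1.22, 2.50 and 1.82 at 6h, 1d and 3d. At 1d and 3d edgeR gave 3.54 and 2.78, and DESeq2 3.52 and 2.76. In RPE at 6h NB A1 alone gave 1.37 for Lcn2 and -0.59 for Chil1.

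In retina counts of called genes in both directions together stayed within 1.5 times, but the directions did not. Scaled to library totals, higher and lower calls went from 4057 and 4662 to 7063 and 2448 at 1d, and from 3265 and 4051 to 6007 and 1799 at 3d, and lower companions from 3 to 1 and from 5 to 1. Lower calls at 6h went from 3137 to 2078 against NB A1 and A2. Counts in RPE moved too. At 6h in RPE 244 genes were called, against 147 scaled to totals (81.0% of them higher, in place of 55.3%), 383 by edgeR, 1250 by DESeq2, 452 with the pair alone and 0 by limma against NB A1 alone (1816 at an unadjusted p under 0.05). Companions went from 4 to 7 with DESeq2 and to 0 against NB A1 alone (9 unadjusted). Leaving out 1 library gave 9 to 1011 genes and 1 to 6 companions; any 6h library, NB A1, B1, B2 or B4 moved the count of genes by over 1.5 times, and 6h libraries 1 and 3 that of companions. At 1d the 937 genes became 1668 with DESeq2, 537 with the pair alone and 618 to 1426 with 1 library left out (NB B2 and B3), and the 11 companions 17 with DESeq2. At 3d the 30 genes became 139 with DESeq2, 19 with the pair alone and 15 to 35 with 1 library left out (NB B1, NB B3 and 3d library 1), and the 2 companions 5 with DESeq2. For 3d against 1d the 1100 genes became 1977 with DESeq2, 527 with the pair alone and 363 to 1196 with 1 library left out (1d library 4 and 3d libraries 2 and 4). The cause of these moves was not tested.

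Of 88 named companion calls 68 passed under every alternative, 20 were lost under at least 1, and none changed sign. Replicate numbers shared by 1d and 3d did not pair the libraries: same-number correlations were -0.32 to 0.23 in retina (2 of 4 libraries matched best with their own number) and -0.04 to 0.16 in RPE (1 of 4). A replicate block on the 1d and 3d libraries alone gave 2631 genes in retina, in place of 3626, and 230 in RPE, in place of 1100. No block was possible against NB, whose columns carry no usable number.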
